A study of Homo sapiens with 8 samples.

Results

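The T-cell receptor (TCR) signalling genes described here are 44 genes taken by symbol from the 64252 genes of 2 count tables, 1 for each cell line. They are 5 kinases, 12 adaptors, 14 effectors and transcription factors, 8 phosphatases, ligases and other regulators of the proximal kinases, 3 costimulatory receptors and 2 early target genes. RNA was sequenced from 6T-CEM and J.gamma1, human lines of T-cell acute lymphoblastic leukaemia (T-ALL) that go back to CCRF-CEM and to Jurkat. Cells of each line carried either sh-NC, a lentiviral control shRNA, or sh-LDB1, which targets LDB1, so every group, controls included, had gone through infection and puromycin selection, and each of the 4 groups had 2 libraries. J.gamma1 was selected as a Jurkat variant deficient in PLCG1, the phospholipase downstream of the TCR. Which LDB1 shRNA the sequenced cells carried is not named in the study's methods, and each line is 1 culture source. The labels do not say that the libraries of a group came from separate cultures, so p-values measure the spread between these libraries, which may be technical.

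The TCR has no enzyme of its own. On engagement, LCK phosphorylates its CD3 chains, ZAP70 or its relative SYK binds there and phosphorylates the adaptors LAT and LCP2 (SLP-76), and the complex that forms on them activates PLCG1. The second messengers made by PLCG1 lead to calcium and NFAT, to RASGRP1 and RAS, and to protein kinase C, BCL10 and MALT1, while CSK, PTPN22, CBL and UBASH3 proteins hold the proximal kinases in check. T-ALL cells correspond to blocked thymocytes, and LDB1 is an adaptor that links LIM-domain and other transcription factors and holds enhancers close to promoters.

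Total counts per library ranged from 26160492 to 30604977, of which the 44 genes took between 0.457% and 0.524%. Levels are CPM, the count of a gene for each 1000000 counts of its library, after TMM normalization of all 8 libraries on 1 scale, given for both libraries of a group. Changes are log2 fold changes of sh-LDB1 against sh-NC from edgeR's quasi-likelihood test, fitted in each line across all genes. A gene is said to have risen or fallen at an adjusted p under 0.05 after Benjamini-Hochberg adjustment over all genes tested. LDB1 itself had 107 and 111 CPM in the 6T-CEM controls and 37.0 and 35.0 after knockdown (log2 fold change -1.60, standard error 0.071, edgeR adjusted p = 1.02e-09). It had 60.1 and 58.8 CPM in the J.gamma1 controls and 33.2 and 30.7 after knockdown (log2 fold change -0.89, standard error 0.075, edgeR adjusted p = 3.68e-06), so that 33.0% of the control level was left in 6T-CEM and 53.8% in J.gamma1. All 10 T-lineage markers examined were detected in both lines, although CD2 stood at only 0.385 and 0.408 CPM and TRAC at 2.27 and 2.30 CPM in 6T-CEM sh-NC cells. The summed T-lineage level was 2077 to 2120 CPM in the 6T-CEM controls against 2596 to 2740 after knockdown, and 1756 to 1851 against 2398 to 2500 in J.gamma1. This sum thus moved with the knockdown like many genes below, but its markers did not all rise. In 6T-CEM 60% rose and 10% fell, against 15.1% and 16.2% of all genes, and CD5 fell (log2 fold change -0.54, edgeR adjusted p = 7.96e-05). In J.gamma1 60% rose and 20% fell, against 25% and 26.5%. There CD3D (-0.21, edgeR adjusted p = 0.00279) and TRBC1 (-0.98, edgeR adjusted p = 0.0452) fell. The part of this sum in the changes of the genes below was not tested. The summed levels of other cell types were at most 2.91 CPM for 6 myeloid genes and 1.20 for 5 erythroid genes. The summed level of 6 B-cell genes was 34.7 to 34.9 CPM in the 6T-CEM controls against 43.4 to 46.5 after knockdown, and 80.4 to 81.9 against 105 to 107 in J.gamma1. It was carried mostly by CD79A, in J.gamma1 also by BLK, and in 6T-CEM also by CD79B, which had 7.66 and 8.20 CPM in the 6T-CEM controls and 4.63 and 3.32 after knockdown, and PAX5, which had 2.65 and 3.26 CPM in the 6T-CEM controls and 1.54 and 2.27 after knockdown. MS4A1 was at 0.102 CPM or less in every library. The summed level of 6 genes of epithelial or packaging cells was 0.965 to 1.54 CPM in the 6T-CEM controls against 1.85 to 2.91 after knockdown, and 6.15 to 6.64 against 11.3 to 11.4 in J.gamma1, where COL1A1 made up most of it. The part of these markers in the changes was not tested either. In bulk libraries, fewer cells with a transcript and less of it in each cell cannot be told apart.

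In 6T-CEM, 42 of the 44 genes passed the filter on low counts, of which 9 rose, 12 fell and 21 did not pass the test. Among all 16059 genes tested in that line 15.1% rose and 16.2% fell, against 21.4% and 28.6% of these genes. In J.gamma1, 43 genes were tested, of which 15 rose, 19 fell and 9 did not pass, or 34.9% and 44.2%, against 25% rising and 26.5% falling among all 17215 genes. Changes beyond a log2 fold change of 1 were few in 6T-CEM, with ICOS and NR4A1 rising past it and no member falling past it, against 5.13% of all genes in either direction. In J.gamma1 THEMIS, SLA2, LAT, CD28, SIT1 and PTPN22 rose past it and SLA and EGR1 fell past it, 8 of 43 genes against 13.9% of all genes. The median log2 fold change of the members in 6T-CEM was -0.046 and that in J.gamma1 was -0.16, beside 0.0027 and -0.00025 over all genes tested. With signs left aside the medians were 0.256 in 6T-CEM and 0.464 in J.gamma1, beside 0.252 and 0.401 over all genes. CTLA4, an inhibitory receptor of activated T cells, had 0 to 6 counts in each 6T-CEM library and 0 in each J.gamma1 library and was tested in neither line.

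**Figure D1:**
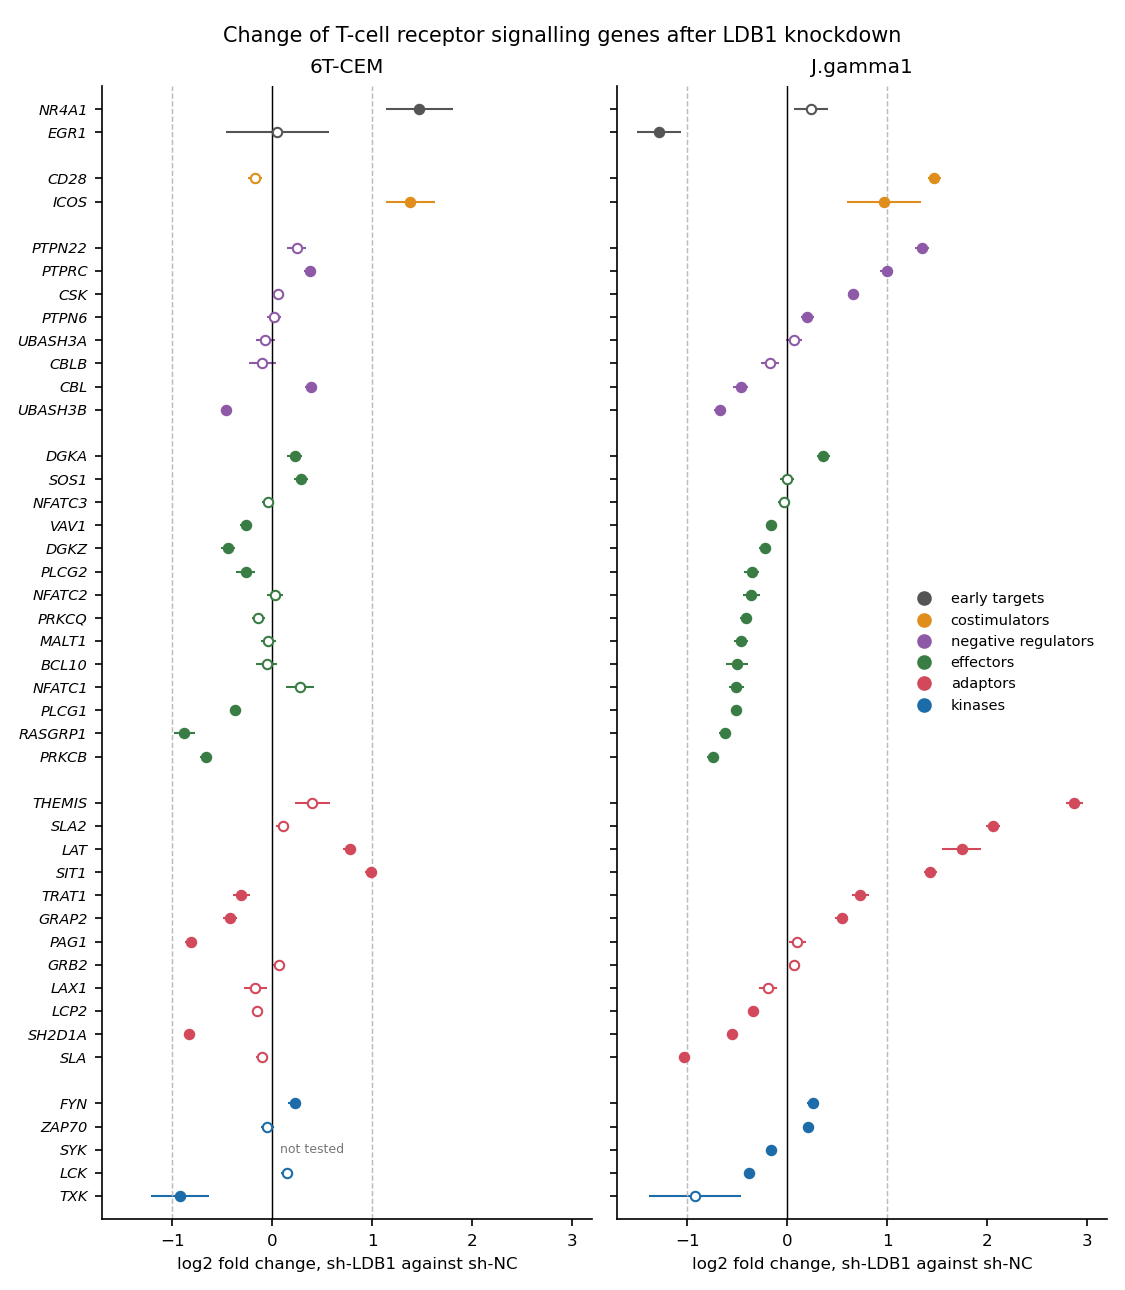
Log2 fold change of each member (sh-LDB1 against sh-NC, n = 2 libraries per group) in 6T-CEM (left) and J.gamma1 (right), grouped by role. Bars are standard errors, filled points passed an edgeR adjusted p of 0.05, and dashed lines mark log2 fold changes of -1 and 1. In J.gamma1 most effectors lie left of 0, while the adaptors spread from SLA at -1.03 to THEMIS at 2.87.

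**Figure D2:**
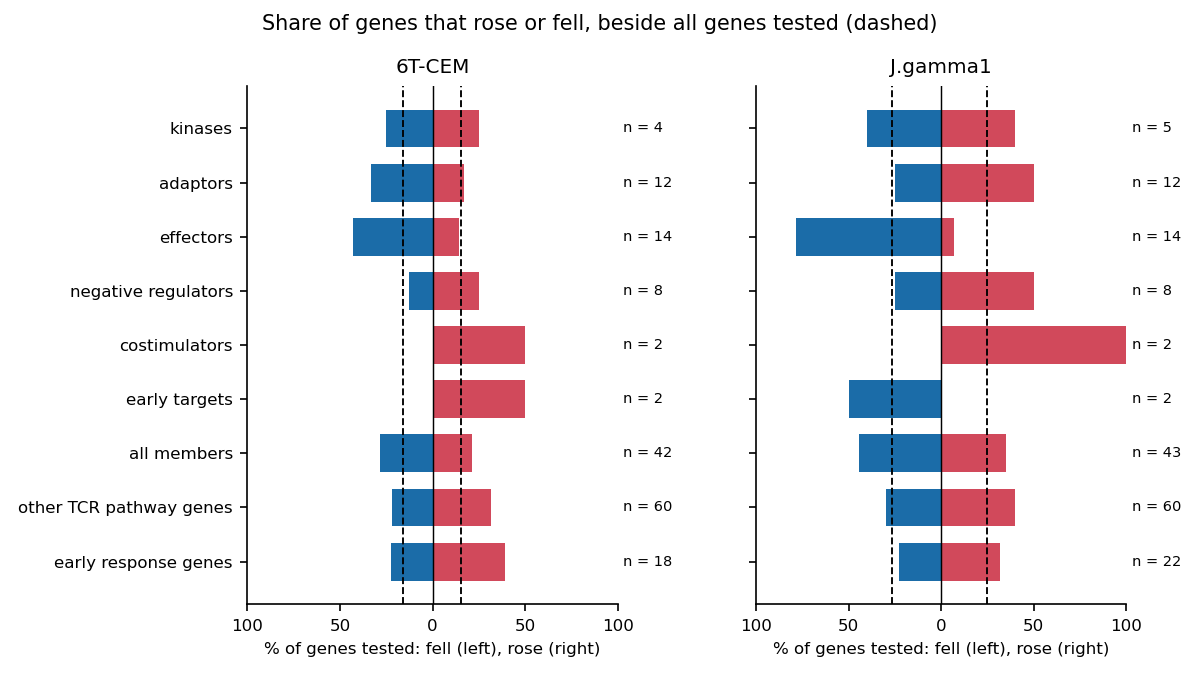
Percent of the tested genes of each role, and of the other lists, that fell (blue) or rose (red) with sh-LDB1 in each line, with the number tested beside each bar. Dashed lines mark the share of all genes tested (16.2% and 15.1% in 6T-CEM, 26.5% and 25% in J.gamma1), and the longest bar on the falling side is that of the effectors in J.gamma1, at 78.6%.

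Among the proximal kinases LCK fell in J.gamma1, FYN rose in both lines, and SYK was detected in J.gamma1 alone. LCK, the Src-family kinase that starts TCR signalling, had 306 and 287 CPM in the 6T-CEM controls and 323 and 329.6 after knockdown and did not pass the test there (log2 fold change 0.14, standard error 0.054, edgeR adjusted p = 0.0582). It was called higher there with upper-quartile factors (adjusted p = 0.0245), with a minimum of 1 CPM in 2 libraries (0.0439), with DESeq2 (0.0436) and in a fit to all 8 libraries (0.042). It had 740.5 and 777 CPM in the J.gamma1 controls and 578 and 584 after knockdown and fell (log2 fold change -0.38, standard error 0.042, edgeR adjusted p = 2.85e-05). Both J.gamma1 knockdown libraries lay below both controls, but above every 6T-CEM library. FYN, the other Src-family kinase of T cells, rose in both lines, at log2 fold changes of 0.23 (edgeR adjusted p = 0.0185) in 6T-CEM and 0.26 (edgeR adjusted p = 0.00358) in J.gamma1. In 6T-CEM the adjusted p was above the threshold without a filter on low counts (0.0605), without the first sh-NC library (0.0585), without the second sh-NC library (0.12) and without the second sh-LDB1 library (0.145). ZAP70 ranged from 138 to 153 CPM over the 6T-CEM libraries, with a log2 fold change of -0.047 (edgeR adjusted p = 0.619). In J.gamma1 ZAP70 ranged from 171 to 212 CPM and rose at a log2 fold change of 0.21 (edgeR adjusted p = 0.0103), but adjusted p was above the threshold without the second sh-LDB1 library (0.0959). SYK, which can stand in for ZAP70 in thymocytes, had 0 counts in all 4 libraries of 6T-CEM. In J.gamma1 SYK had 3502 and 3605 counts in the controls and 2856 and 2888 after knockdown, or 98.0 to 114 CPM. Against a floor of 3 counts in a 6T-CEM library, SYK was at least 972-fold higher in J.gamma1 with sh-NC and at least 953-fold higher with sh-LDB1. Its log2 fold change in J.gamma1 was -0.16 (edgeR adjusted p = 0.0261), and adjusted p was above the threshold with upper-quartile factors (0.115), with DESeq2 (0.0755), in a fit to all 8 libraries (0.0682), without the second sh-NC library (0.12) and without the second sh-LDB1 library (0.156). TXK, a Tec-family kinase of T cells, was scarce. It had 3.04 and 3.78 CPM in the 6T-CEM controls and 2.16 and 1.43 after knockdown, a log2 fold change of -0.92 (standard error 0.29, edgeR adjusted p = 0.025), and adjusted p was above the threshold without a filter on low counts (0.076), with DESeq2 (0.109), in a fit to all 8 libraries (0.0542), without the first sh-NC library (0.0568), without the second sh-NC library (0.183) and without the second sh-LDB1 library (0.193). In J.gamma1, where TXK reached at most 1.14 CPM, the log2 fold change was -0.92 (standard error 0.46, edgeR adjusted p = 0.117).

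The transmembrane adaptors held the clearest rise common to both lines. SIT1 (ENSG00000137078, chr9:35649295-35650931, GRCh38), an adaptor that binds the phosphatase SHP2 and dampens TCR signals, had 122 and 113 CPM in the 6T-CEM controls and 228 and 237 after knockdown (log2 fold change 0.99, standard error 0.06, edgeR adjusted p = 2.26e-08). It had 45.5 and 44.6 CPM in the J.gamma1 controls and 116 and 126 after knockdown (log2 fold change 1.43, standard error 0.062, edgeR adjusted p = 2.82e-08). The knockdown libraries lay above the controls in both lines, a 1.99-fold and a 2.70-fold rise. LAT (ENSG00000213658, chr16:28984826-28990784), the scaffold on which ZAP70 builds the signalling complex, had 72.9 and 77.3 CPM in the 6T-CEM controls and 132 and 125 after knockdown (log2 fold change 0.78, standard error 0.065, edgeR adjusted p = 5.41e-07). In J.gamma1 it had 29.6 and 42.2 CPM in the controls and 116 and 123 after knockdown (log2 fold change 1.74, standard error 0.19, edgeR adjusted p = 0.00392). The J.gamma1 controls of LAT were unequal. Its adjusted p was above the threshold without the first sh-LDB1 library (log2 fold change 1.78) and without the second sh-LDB1 library (1.71). LAT shares 2112 exon bases, 46.5% of its exon length, with the lncRNA gene ENSG00000261067 on the same strand, to which 939 and 270 counts were given in the J.gamma1 controls beside 940 and 1331 for LAT. With both genes summed, an alternative chosen after the data were seen, the level was 59.2 and 50.7 CPM in the J.gamma1 controls and 127 and 134 after knockdown, a log2 fold change of 1.25 (standard error 0.075, edgeR adjusted p = 6.88e-07). The summed log2 fold change in 6T-CEM was 0.74 (edgeR adjusted p = 3.43e-07). LAT thus rose under both countings, by less in J.gamma1 where the shared exons were summed.

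TRAT1, PAG1 and LAX1 complete the transmembrane adaptors. TRAT1 (TRIM), which binds the CD3 zeta chain, had 122 and 106 CPM in the 6T-CEM controls and 98.5 and 85.2 after knockdown (log2 fold change -0.31, standard error 0.085, edgeR adjusted p = 0.017), and adjusted p was above the threshold without a filter on low counts (0.0643), without the first sh-NC library (0.184) and without the second sh-LDB1 library (0.12). It had 31.3 and 27.9 CPM in the J.gamma1 controls and 49.0 and 48.9 after knockdown and rose (log2 fold change 0.73, standard error 0.082, edgeR adjusted p = 2.78e-05). TRAT1 was therefore called lower in one line and higher in the other, with no overlap of the groups in either. PAG1 (Cbp), which anchors CSK at the membrane, had 375 and 396 CPM in the 6T-CEM controls and 233 and 204 after knockdown and fell (log2 fold change -0.81, standard error 0.065, edgeR adjusted p = 6.91e-07). In J.gamma1 PAG1 was far lower, with 38.0 and 36.8 CPM in the controls and 42.5 and 37.5 after knockdown, and its groups overlapped (log2 fold change 0.10, standard error 0.084, edgeR adjusted p = 0.342). LAX1, a LAT-like adaptor that limits signalling, passed in neither line, at log2 fold changes of -0.17 (edgeR adjusted p = 0.281) and -0.19 (edgeR adjusted p = 0.102).

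Of the cytosolic adaptors, THEMIS and SLA2 rose and SLA fell in J.gamma1, all 3 by more than a log2 fold change of 1, and none passed in 6T-CEM, where THEMIS was called higher in a fit to all 8 libraries (adjusted p = 0.0273). THEMIS (ENSG00000172673, chr6:127708072-127918631), a GRB2-binding protein needed for thymocyte selection, had 6.16 and 7.23 CPM in the 6T-CEM controls and 8.50 and 9.12 after knockdown (log2 fold change 0.40, standard error 0.18, edgeR adjusted p = 0.101). It had 8.57 and 8.62 CPM in the J.gamma1 controls and 65.7 and 59.8 after knockdown, a 7.33-fold rise and the largest log2 fold change of any member (log2 fold change 2.87, standard error 0.089, edgeR adjusted p = 3.19e-09). The mean was 8.59 ± 0.0385 CPM with sh-NC and 62.8 ± 4.21 CPM with sh-LDB1 (SD, n = 2), while all 4 libraries of 6T-CEM stayed under 10 CPM. SLA2 (ENSG00000101082, chr20:36612318-36646196) and SLA encode the Src-like adaptors, which lower TCR levels at the surface together with CBL. SLA2 had 153 and 154 CPM in the 6T-CEM controls and 154 and 175 after knockdown (log2 fold change 0.11, standard error 0.066, edgeR adjusted p = 0.256). It had 24.2 and 22.9 CPM in the J.gamma1 controls and 98.4 and 96.8 after knockdown (log2 fold change 2.06, standard error 0.069, edgeR adjusted p = 5.26e-09). The J.gamma1 controls held far less SLA2 than 6T-CEM cells, and the knockdown libraries came part of the way up. SLA2 shares 240 exon bases with RAB5IF on the other strand, whose J.gamma1 counts averaged 2204 with sh-NC and 2190 with sh-LDB1. SLA had 163 and 169.6 CPM in the 6T-CEM controls and 149.9 and 159 after knockdown (log2 fold change -0.10, standard error 0.059, edgeR adjusted p = 0.21). It had 369.7 and 383 CPM in the J.gamma1 controls and 184 and 183 after knockdown and fell to 48.8% of control (log2 fold change -1.03, standard error 0.045, edgeR adjusted p = 2.9e-08). Per kilobase of merged exon length (7491 bases for SLA and 2737 for SLA2), J.gamma1 controls had 50.2 CPM of SLA and 8.59 of SLA2. Knockdown cells had 24.5 and 35.6. The order of the 2 adaptors thus turned on that scale only, while in CPM SLA stayed above SLA2. Merged exon length pools the exons of all annotated isoforms, so this order depends on the length used.

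GRAP2 (GADS) couples LCP2 to LAT. GRAP2 had 90.0 and 86.3 CPM in the 6T-CEM controls and 64.9 and 66.4 after knockdown and fell (log2 fold change -0.42, standard error 0.067, edgeR adjusted p = 0.000236). It had 45.0 and 44.3 CPM in the J.gamma1 controls and 65.0 and 64.8 after knockdown and rose (log2 fold change 0.55, standard error 0.066, edgeR adjusted p = 4.97e-05). From unequal controls the knockdown libraries of both lines arrived at about 65 CPM, between 64.8 and 66.4. SH2D1A (SAP), which links SLAM-family receptors to FYN, had 522 and 510.0 CPM in the 6T-CEM controls and 294 and 283 after knockdown (log2 fold change -0.84, standard error 0.052, edgeR adjusted p = 2.62e-08). It had 210.2 and 203 CPM in the J.gamma1 controls and 135 and 145 after knockdown (log2 fold change -0.55, standard error 0.052, edgeR adjusted p = 8.13e-06). SH2D1A fell in both lines without overlap of the groups. LCP2 ranged from 91.2 to 152 CPM over all libraries and fell in J.gamma1 at a log2 fold change of -0.34 (edgeR adjusted p = 0.000272), while its log2 fold change in 6T-CEM was -0.15 (edgeR adjusted p = 0.0616). GRB2, which brings SOS1 to LAT, passed in neither line, at log2 fold changes of 0.067 (edgeR adjusted p = 0.411) and 0.064 (edgeR adjusted p = 0.248). Over the 12 adaptors 2 rose and 4 fell in 6T-CEM (16.7% and 33.3%, against 15.1% and 16.2% of all genes), and 6 rose and 3 fell in J.gamma1 (50% and 25%, against 25% and 26.5%).

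**Figure D3:**
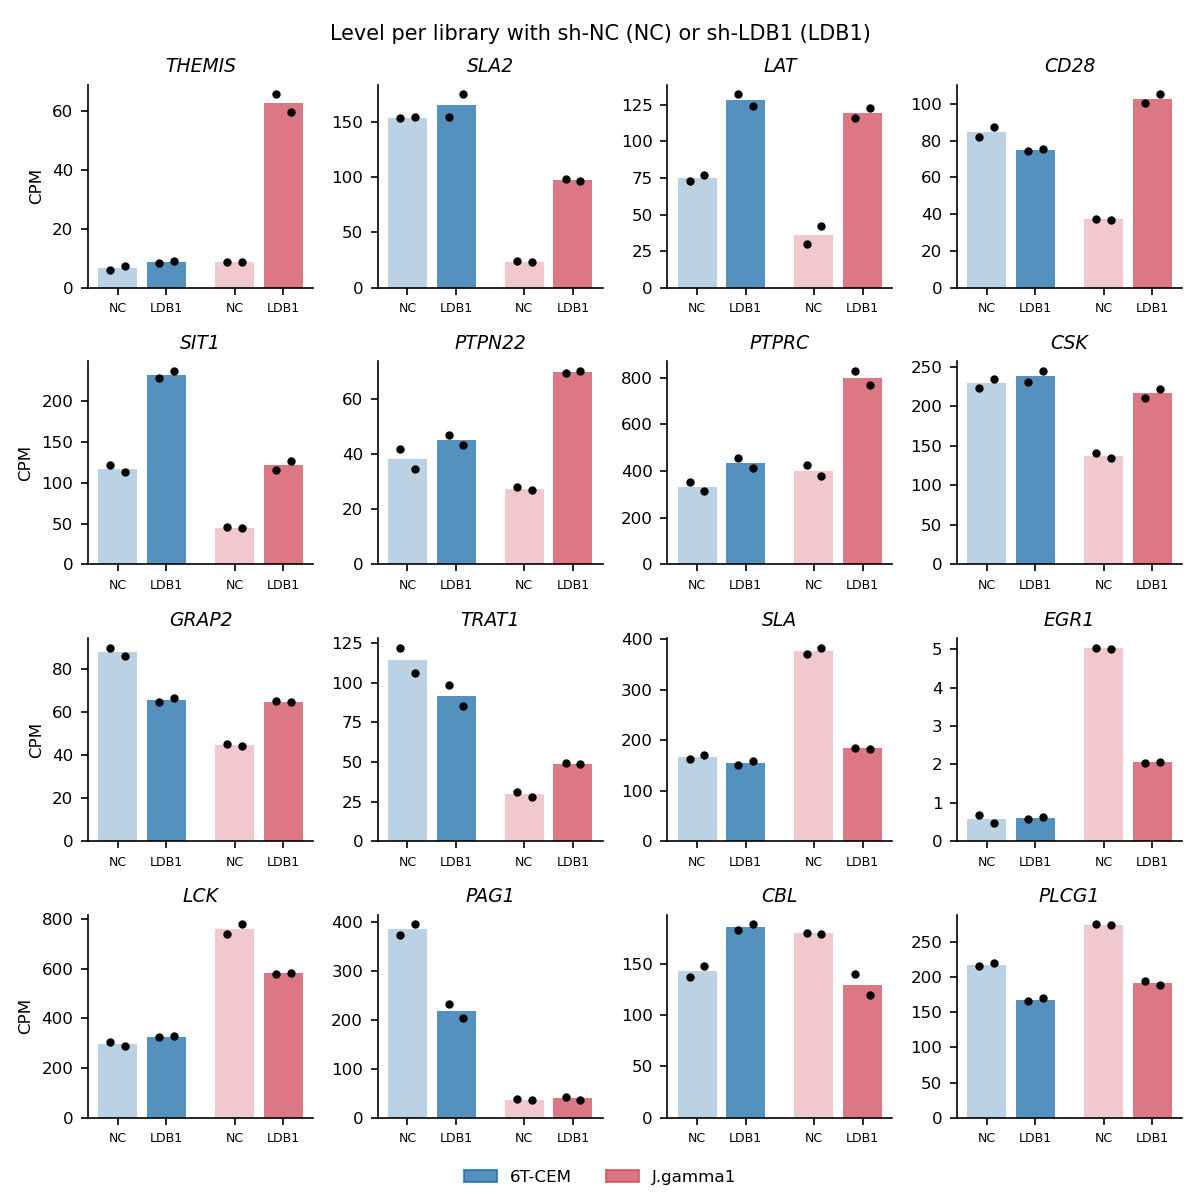
CPM of 16 members in each library (points) with the group mean (bars from 0), pale bars for sh-NC and dark bars for sh-LDB1, 6T-CEM in blue and J.gamma1 in red, n = 2 per group, each panel with its own scale. THEMIS stays under 10 CPM in all but the J.gamma1 knockdown libraries, and GRAP2, TRAT1 and CBL move in opposite directions in the lines.

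The 120 bases before the RefSeq start are shown for the members that changed past a log2 fold change of 1 in J.gamma1 and have a RefSeq promoter entry (GRCh38.p14). Gene positions given elsewhere in the text are from GENCODE, which places some starts differently. By those positions the CD28 window lies wholly inside its gene, and the THEMIS and PTPN22 windows partly overlap theirs. The windows of SIT1, LAT and EGR1 lie before their genes. All sequences read 5′ to 3′ on the strand of the gene, with matches to the searched motifs in capitals.
THEMIS: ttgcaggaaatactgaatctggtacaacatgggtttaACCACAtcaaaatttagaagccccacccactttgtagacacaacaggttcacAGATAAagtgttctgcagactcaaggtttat
CD28: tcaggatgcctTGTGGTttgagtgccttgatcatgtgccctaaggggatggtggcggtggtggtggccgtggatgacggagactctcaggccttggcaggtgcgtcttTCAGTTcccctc
SIT1: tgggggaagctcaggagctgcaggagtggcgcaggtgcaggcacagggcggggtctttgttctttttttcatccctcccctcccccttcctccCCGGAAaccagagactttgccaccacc
LAT: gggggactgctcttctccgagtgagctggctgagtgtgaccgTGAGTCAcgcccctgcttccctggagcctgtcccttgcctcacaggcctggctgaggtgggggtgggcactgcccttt
PTPN22: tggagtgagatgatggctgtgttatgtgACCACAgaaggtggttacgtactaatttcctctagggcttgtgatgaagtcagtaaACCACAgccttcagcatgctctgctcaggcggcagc
EGR1: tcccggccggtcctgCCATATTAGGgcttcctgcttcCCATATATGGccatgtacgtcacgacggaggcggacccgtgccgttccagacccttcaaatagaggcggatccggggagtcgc
These windows are chr6:127918596-127918715 on the minus strand for THEMIS, chr2:203706519-203706638 on the plus strand for CD28, chr9:35650932-35651051 on the minus strand for SIT1, chr16:28984683-28984802 on the plus strand for LAT, chr1:113871713-113871832 on the minus strand for PTPN22 and chr5:138465359-138465478 on the plus strand for EGR1. The capitals mark RUNX motifs (TGTGGT, or ACCACA on the other strand) in THEMIS, CD28 and PTPN22, a GATA motif (AGATAA) in THEMIS and a MYB motif (AACTGN, here read on the other strand) in CD28. They mark an ETS motif (CCGGAA) in SIT1, an AP-1 motif (TGACTCA, read on the other strand) in LAT and 2 CArG boxes, the element bound by serum response factor, in EGR1. For THEMIS the 5′-most of its 3 entries is shown, and for LAT the 5′-most of 2, of which the other holds a RUNX match at -3 and an E-box at -173 from its start. Entries reach from 250 bases before to 50 after the start, and 39 of the 44 members matched with 66 of them. On both strands RUNX letters were in 16.7% of the 66 and in 13.1% of all 35116 promoters, and GATA letters in 7.58% and 10.3%. The E-box CAGCTG was in 22.7% and 17.9%, MYB letters in 42.4% and 39.7%, ETS letters in 12.1% and 17.2%, AP-1 letters in 3.03% and 4.95% and a CArG box in 1.52% and 1.29%. None of these motifs contains another. The shares of the members were thus near those of all promoters, and a match is no evidence of binding.

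The effectors downstream of LAT were mostly lower in J.gamma1 knockdown cells, where 11 of 14 (78.6%, against 26.5% of all genes) fell and 1 rose. In 6T-CEM 6 of 14 fell and 2 rose (42.9% and 14.3%, against 16.2% and 15.1% of all genes). With signs left aside, the median log2 fold change of the 14 was 0.390 in J.gamma1 and 0.266 in 6T-CEM. Over all genes tested it was 0.401 and 0.252, so the larger falling share did not go with clearly larger changes. Those that fell include PLCG2 and DGKZ, whose roles, given below, differ from those of PLCG1. The named enzymes span the RAS, calcium and NF-κB branches. The falling share belongs to these 14 genes, whose grouping was chosen with earlier results of these data known. It does not extend to the branches as a whole. Among 60 other TCR pathway genes, described below, 40% rose and 30% fell in J.gamma1. PLCG1 (ENSG00000124181, chr20:41136960-41196801), the phospholipase that cleaves PIP2, had 216 and 219 CPM in the 6T-CEM controls and 166 and 169.7 after knockdown (log2 fold change -0.37, standard error 0.055, edgeR adjusted p = 0.000114). It had 275 and 273 CPM in the J.gamma1 controls and 195 and 188 after knockdown (log2 fold change -0.51, standard error 0.046, edgeR adjusted p = 5.86e-06). RNA of PLCG1 was thus present at a higher level in J.gamma1 controls than in 6T-CEM controls, although the parent variant was selected for lack of this enzyme, and it fell in both lines. Protein was not measured here, and 268 exon bases are shared with ZHX3 on the other strand, whose mean count was 2066 and then 2012 in 6T-CEM, and 2428 and then 1654 in J.gamma1. The related PLCG2, which serves B cells and myeloid cells, fell, at log2 fold changes of -0.27 (edgeR adjusted p = 0.042) and -0.35 (edgeR adjusted p = 0.00217), from controls of 35.2 to 43.5 CPM. In 6T-CEM the adjusted p was above the threshold with upper-quartile factors (0.0686), without a filter on low counts (0.0908), with DESeq2 (0.121), without the first sh-NC library (0.145), without the second sh-NC library (0.16) and without the first sh-LDB1 library (0.261).

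RASGRP1, the diacylglycerol-sensitive activator of RAS, had 28.2 and 30.2 CPM in the 6T-CEM controls and 15.6 and 16.0 after knockdown (log2 fold change -0.88, standard error 0.11, edgeR adjusted p = 1.92e-05). It had 87.3 and 83.4 CPM in the J.gamma1 controls and 54.5 and 56.0 after knockdown (log2 fold change -0.62, standard error 0.062, edgeR adjusted p = 1.21e-05). The fall was seen in both lines, with 54.3% and 64.7% of control left. SOS1, the GRB2-bound activator of RAS, had 56.9 and 62.7 CPM in the 6T-CEM controls and 73.1 and 72.8 after knockdown (log2 fold change 0.29, standard error 0.073, edgeR adjusted p = 0.00736), and adjusted p was above the threshold without the first sh-NC library (0.0968). It had 46.3 and 44.4 CPM in the J.gamma1 controls and 45.0 and 45.1 after knockdown, with overlapping groups (log2 fold change -0.0047, standard error 0.071, edgeR adjusted p = 0.964). VAV1, the exchange factor for RAC, fell, at log2 fold changes of -0.27 (edgeR adjusted p = 0.00446) and -0.16 (edgeR adjusted p = 0.0189). For VAV1 the adjusted p was above the threshold without the first sh-NC library (0.0729) in 6T-CEM and in J.gamma1 it was above the threshold with upper-quartile factors (0.0877), without the first sh-NC library (0.0918) and without the second sh-LDB1 library (0.0919).

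Protein kinase C and its partners lead to NF-κB. PRKCB had 195 and 196 CPM in the 6T-CEM controls and 119.5 and 127 after knockdown (log2 fold change -0.66, standard error 0.059, edgeR adjusted p = 9.63e-07). It had 147 and 139 CPM in the J.gamma1 controls and 86.6 and 83.1 after knockdown (log2 fold change -0.75, standard error 0.055, edgeR adjusted p = 1.38e-06). PRKCB was the effector with the largest fall in J.gamma1, and the groups did not overlap in either line. PRKCQ, the isoform at the T-cell synapse, had 109 and 111 CPM in the 6T-CEM controls and 97.6 and 101 after knockdown (log2 fold change -0.14, standard error 0.062, edgeR adjusted p = 0.109). It had 88.0 and 84.4 CPM in the J.gamma1 controls and 65.0 and 63.6 after knockdown (log2 fold change -0.42, standard error 0.06, edgeR adjusted p = 0.00017). MALT1, the paracaspase activated with BCL10, had 46.6 and 44.3 CPM in the 6T-CEM controls and 44.8 and 43.6 after knockdown and the groups overlapped (log2 fold change -0.038, standard error 0.078, edgeR adjusted p = 0.761). It had 53.1 and 49.7 CPM in the J.gamma1 controls and 37.1 and 37.2 after knockdown (log2 fold change -0.46, standard error 0.074, edgeR adjusted p = 0.000361). BCL10 fell in J.gamma1 at a log2 fold change of -0.50 (edgeR adjusted p = 0.00245), and in 6T-CEM its log2 fold change was -0.056 (edgeR adjusted p = 0.739). PRKCQ, BCL10 and MALT1 thus passed in J.gamma1 and not in 6T-CEM, although for BCL10 the difference between the lines did not pass, at -0.45 (edgeR adjusted p = 0.0515). It passed with RLE factors (adjusted p = 0.0475), with a minimum of 1 CPM in 2 libraries (0.0488) and without the second J.gamma1 sh-LDB1 library (0.015).

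Of the calcium-regulated NFAT factors, NFATC1 had 11.3 and 12.1 CPM in the 6T-CEM controls and 14.1 and 14.2 after knockdown (log2 fold change 0.28, standard error 0.14, edgeR adjusted p = 0.142). It had 50.4 and 48.1 CPM in the J.gamma1 controls and 33.2 and 35.6 after knockdown (log2 fold change -0.51, standard error 0.076, edgeR adjusted p = 0.000219). NFATC2 had 77.3 and 85.6 CPM in the 6T-CEM controls and 77.6 and 88.1 after knockdown (log2 fold change 0.028, standard error 0.08, edgeR adjusted p = 0.83). Values of NFATC2 overlapped between the 6T-CEM groups but not between those of J.gamma1. NFATC2 had 50.3 and 44.3 CPM in the J.gamma1 controls and 38.0 and 35.5 after knockdown (log2 fold change -0.36, standard error 0.085, edgeR adjusted p = 0.00469). NFATC3 passed in neither line, at log2 fold changes of -0.044 (edgeR adjusted p = 0.605) and -0.037 (edgeR adjusted p = 0.578). The diacylglycerol kinases, which remove the messenger that PLCG1 makes, moved apart. DGKA rose, at log2 fold changes of 0.23 (edgeR adjusted p = 0.0324) in 6T-CEM and 0.36 (edgeR adjusted p = 0.00055) in J.gamma1. DGKZ fell, at -0.44 (edgeR adjusted p = 0.000188) and -0.22 (edgeR adjusted p = 0.00785). For DGKA in 6T-CEM the adjusted p was above the threshold without a filter on low counts (0.0823), with DESeq2 (0.0695), without the first sh-NC library (0.227), without the first sh-LDB1 library (0.0699) and without the second sh-LDB1 library (0.135). DGKA also shares 353 exon bases with PYM1 on the other strand.

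Among the 8 regulators of the proximal kinases, 2 rose and 1 fell in 6T-CEM (25% and 12.5%, against 15.1% and 16.2% of all genes), and 4 rose and 2 fell in J.gamma1 (50% and 25%, against 25% and 26.5%). The members that rose do not all act alike: PTPRC (CD45) activates LCK by removing an inhibitory phosphate, which CSK adds, and PTPN22 is a phosphatase that dampens LCK and ZAP70. PTPRC had 352 and 316 CPM in the 6T-CEM controls and 455 and 411 after knockdown (log2 fold change 0.38, standard error 0.064, edgeR adjusted p = 0.000594). It had 426 and 379 CPM in the J.gamma1 controls and 829.7 and 767 after knockdown (log2 fold change 0.99, standard error 0.065, edgeR adjusted p = 4.07e-06). PTPRC was the member with the highest CPM in J.gamma1 knockdown cells, at 799 ± 44.1 CPM (SD, n = 2). PTPN22 (ENSG00000134242, chr1:113813811-113871753) had 41.8 and 34.8 CPM in the 6T-CEM controls and 47.2 and 43.4 after knockdown (log2 fold change 0.25, standard error 0.10, edgeR adjusted p = 0.0643). It had 28.1 and 26.9 CPM in the J.gamma1 controls and 69.6 and 70.3 after knockdown (log2 fold change 1.35, standard error 0.071, edgeR adjusted p = 1.09e-07). A 2.55-fold rise was thus measured in J.gamma1. In 6T-CEM a rise was called with upper-quartile factors (adjusted p = 0.0368), with a minimum of 1 CPM in 2 libraries (0.0497), with the replicate number as a block (0.0348) and without the first sh-NC library (0.0278). CSK had 224 and 235 CPM in the 6T-CEM controls and 231 and 245 after knockdown, with overlapping groups (log2 fold change 0.057, standard error 0.057, edgeR adjusted p = 0.498). It had 140.5 and 134 CPM in the J.gamma1 controls and 211 and 222 after knockdown (log2 fold change 0.66, standard error 0.051, edgeR adjusted p = 1.81e-06). The J.gamma1 knockdown libraries reached nearly the CSK level of 6T-CEM. PTPN6 (SHP-1), a phosphatase that limits TCR signals, rose in J.gamma1 at a log2 fold change of 0.20 (edgeR adjusted p = 0.0226) and had a log2 fold change of 0.018 (edgeR adjusted p = 0.884) in 6T-CEM. In J.gamma1 its adjusted p was above the threshold without the first sh-NC library (0.159) and without the second sh-LDB1 library (0.0915).

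CBL, a ubiquitin ligase that marks activated kinases for degradation, moved in opposite directions. CBL had 137 and 148 CPM in the 6T-CEM controls and 183 and 188 after knockdown and rose (log2 fold change 0.39, standard error 0.06, edgeR adjusted p = 0.000196). It had 180.0 and 179 CPM in the J.gamma1 controls and 140.1 and 119 after knockdown and fell (log2 fold change -0.46, standard error 0.074, edgeR adjusted p = 0.000801). The groups did not overlap in either line, and CBL shares 509 exon bases with MCAM on the other strand, whose mean count was 1006 and 1061 in 6T-CEM. UBASH3B (STS-1), a phosphatase acting on ZAP70, had 179 and 181 CPM in the 6T-CEM controls and 131 and 130.5 after knockdown (log2 fold change -0.46, standard error 0.056, edgeR adjusted p = 2.29e-05). It had 117 and 119 CPM in the J.gamma1 controls and 73.1 and 73.9 after knockdown (log2 fold change -0.68, standard error 0.052, edgeR adjusted p = 1.81e-06). UBASH3B therefore fell in both lines, while its paralogue UBASH3A passed in neither, at log2 fold changes of -0.071 (edgeR adjusted p = 0.624) and 0.069 (edgeR adjusted p = 0.516). CBLB, the second CBL ligase, was also uncalled, at log2 fold changes of -0.10 (edgeR adjusted p = 0.63) and -0.17 (edgeR adjusted p = 0.125).

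Of the costimulatory receptors, CD28 rose in J.gamma1 and ICOS rose in both lines from very low counts. CD28 (ENSG00000178562, chr2:203706475-203738912), which provides the second signal for activation, had 82.3 and 87.7 CPM in the 6T-CEM controls and 74.5 and 75.7 after knockdown (log2 fold change -0.17, standard error 0.068, edgeR adjusted p = 0.0642). It had 37.5 and 37.0 CPM in the J.gamma1 controls and 100.4 and 105 after knockdown, a 2.77-fold rise (log2 fold change 1.47, standard error 0.063, edgeR adjusted p = 2.51e-08). The J.gamma1 controls lay below all 6T-CEM libraries and the knockdown libraries above them. ICOS had 1.96 and 1.74 CPM in the 6T-CEM controls and 5.25 and 4.40 after knockdown (log2 fold change 1.38, standard error 0.25, edgeR adjusted p = 0.0006). In J.gamma1 ICOS had 21 and 32 counts in the controls and 46 and 48 after knockdown (log2 fold change 0.97, standard error 0.37, edgeR adjusted p = 0.049), and adjusted p was above the threshold without a filter on low counts (0.0772), with DESeq2 (0.175), with the replicate number as a block (0.0677), without the first sh-NC library (0.227), without the first sh-LDB1 library (0.139) and without the second sh-LDB1 library (0.134).

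EGR1 and NR4A1 encode transcription factors that TCR signals induce within the first hour, and both were low in these cells. EGR1 (ENSG00000120738, chr5:138465479-138469303) had 0.693 and 0.482 CPM in the 6T-CEM controls and 0.583 and 0.629 after knockdown, with overlapping groups (log2 fold change 0.051, standard error 0.52, edgeR adjusted p = 0.956). It had 5.04 and 5.01 CPM in the J.gamma1 controls and 2.04 and 2.07 after knockdown (log2 fold change -1.28, standard error 0.22, edgeR adjusted p = 0.000637). EGR1 in J.gamma1 thus fell to 40.9% of a control level that was above that of 6T-CEM. NR4A1 had 0.885 and 0.965 CPM in the 6T-CEM controls and 2.19 and 2.94 after knockdown (log2 fold change 1.47, standard error 0.33, edgeR adjusted p = 0.00368), and adjusted p was above the threshold without the second sh-LDB1 library (0.0571). It had 6.68 and 5.80 CPM in the J.gamma1 controls and 7.36 and 7.29 after knockdown (log2 fold change 0.24, standard error 0.17, edgeR adjusted p = 0.269). Of the 2 early targets, NR4A1 alone was called in 6T-CEM and EGR1 alone in J.gamma1. Whether their changes differed from each other within a line was not tested.

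Across roles, FYN, LAT, PTPRC, ICOS, DGKA and SIT1 rose in both lines, and PLCG1, PLCG2, VAV1, RASGRP1, PRKCB, UBASH3B, SH2D1A and DGKZ fell in both. GRAP2 and TRAT1 fell in 6T-CEM and rose in J.gamma1, and CBL did the reverse. Whether the change itself differed was tested as an interaction in a fit to all 8 libraries, in which 23 of 43 members passed. The change was higher in J.gamma1 than in 6T-CEM for 12 of them, or 27.9%, against 12% of all 18552 genes tested, and lower for 11, or 25.6%, against 12.4%. With upper-quartile factors in place of TMM the split was 14 higher and 8 lower. With signs left aside, the median difference was 0.296 for the members and 0.397 for all genes tested. The larger called share of the members thus did not go with larger differences. Among the adaptors 8 of 12 changed more positively in J.gamma1 (LAT, GRAP2, PAG1, SH2D1A, SLA2, THEMIS, SIT1 and TRAT1) and SLA more negatively. The 5 effectors that passed (SOS1, PRKCQ, MALT1, NFATC1 and NFATC2) and the kinase LCK all had the lower change in J.gamma1.

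On the log2 scale the largest differences in change, J.gamma1 minus 6T-CEM, were 2.47 (standard error 0.16, edgeR adjusted p = 1.45e-06) for THEMIS and 1.95 (standard error 0.092, edgeR adjusted p = 1.54e-07) for SLA2. CD28 followed with 1.64 (standard error 0.083, edgeR adjusted p = 2.55e-07). For PTPN22 the difference was 1.10 (edgeR adjusted p = 7.59e-05), for TRAT1 1.04 (edgeR adjusted p = 0.000145), for GRAP2 0.96 (edgeR adjusted p = 9.26e-06) and for PAG1 0.91 (edgeR adjusted p = 0.000111). Among the negative differences, SLA stood at -0.93 (edgeR adjusted p = 2.76e-06), CBL at -0.85 (edgeR adjusted p = 0.000103), NFATC1 at -0.79 (edgeR adjusted p = 0.000655) and LCK at -0.52 (edgeR adjusted p = 0.000125). The 23 calls included 8 that were lost in at least 1 alternative: LAT, SOS1, PRKCQ, NFATC2, UBASH3B, SH2D1A, EGR1 and NR4A1. For UBASH3B the adjusted p was above the threshold with upper-quartile factors (0.0656) and without any 1 of the 8 libraries (between 0.0608 and 0.0953), and for SOS1 adjusted p was above the threshold with upper-quartile factors (0.0705), with DESeq2 (0.0655) and without any 1 of 7 libraries, all but the second 6T-CEM sh-NC library (between 0.0599 and 0.163). For LAT the adjusted p was above the threshold without the second 6T-CEM sh-LDB1 library (0.0542) and without the second J.gamma1 sh-LDB1 library (0.0512), and with its lncRNA summed the difference was 0.51 (edgeR adjusted p = 0.0024). For EGR1 the adjusted p was above the threshold without a filter on low counts (0.0631), with DESeq2 (0.133), with the replicate number as a block (0.0624) and without any 1 of 7 libraries, all but the first 6T-CEM sh-NC library (between 0.0799 and 0.139), and for NR4A1 adjusted p was above the threshold without the first 6T-CEM sh-NC library, the second 6T-CEM sh-LDB1 library, the first J.gamma1 sh-NC library, the first J.gamma1 sh-LDB1 library or the second J.gamma1 sh-LDB1 library (between 0.0507 and 0.0676). For NFATC2 it was above the threshold with upper-quartile factors (0.06) and without the first 6T-CEM sh-NC library, the second 6T-CEM sh-LDB1 library, the first J.gamma1 sh-NC library, the first J.gamma1 sh-LDB1 library or the second J.gamma1 sh-LDB1 library (between 0.0577 and 0.156), for PRKCQ adjusted p was above the threshold without the first 6T-CEM sh-NC library, the second 6T-CEM sh-LDB1 library, the first J.gamma1 sh-NC library or the second J.gamma1 sh-LDB1 library (between 0.0615 and 0.075) and for SH2D1A adjusted p was above the threshold without the second J.gamma1 sh-LDB1 library (0.0517). Of the genes that fell in both lines, PLCG1, PRKCB and RASGRP1 did not pass the test of the difference, at -0.14 (edgeR adjusted p = 0.124), -0.085 (edgeR adjusted p = 0.471) and 0.25 (edgeR adjusted p = 0.0881).

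**Figure D4:**
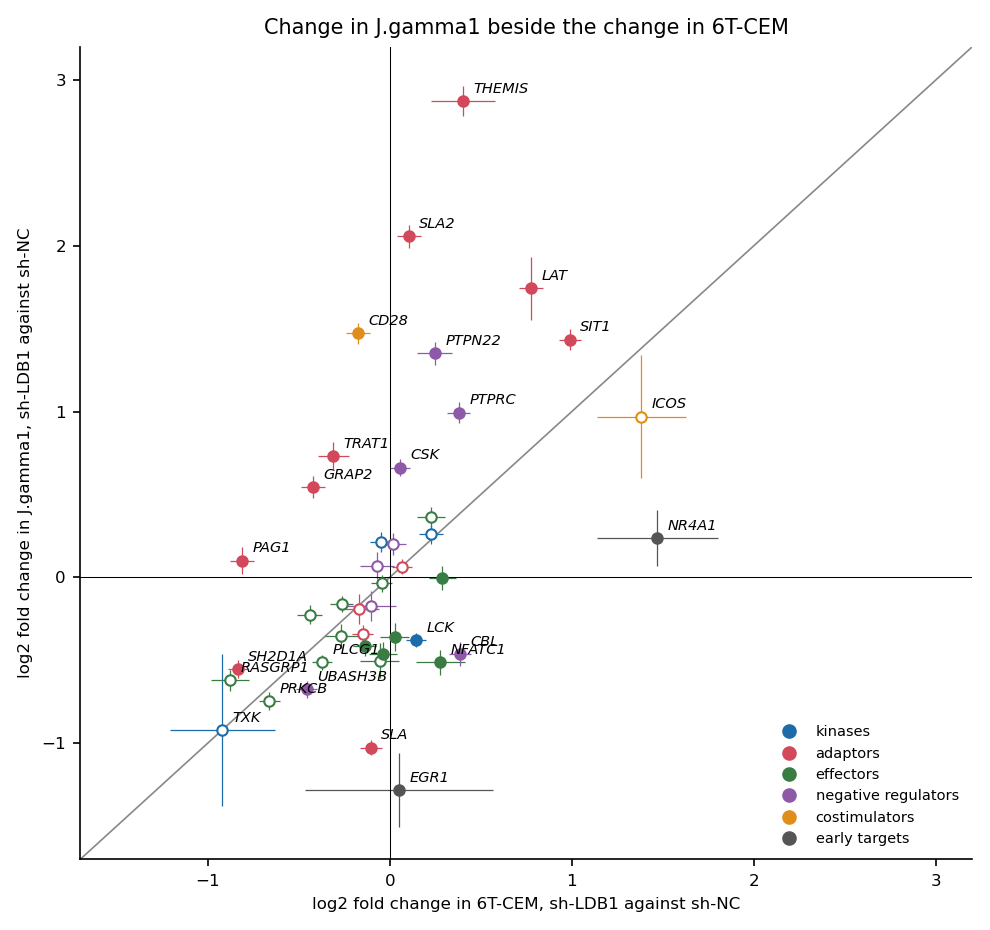
Log2 fold change of each member tested in both lines, 6T-CEM on the x axis and J.gamma1 on the y axis, with standard errors (n = 2 libraries per group). Filled points passed the interaction test at an edgeR adjusted p of 0.05, and the grey line marks equal change. THEMIS, SLA2 and CD28 lie furthest above the line, and PLCG1, PRKCB and RASGRP1 lie close to it as open points.

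The lines also differed in their control levels. Between the sh-NC groups 40 of 43 members passed, 20 higher and 20 lower in J.gamma1, or 46.5% each, against 34.6% and 31.1% of all genes. Differences beyond a log2 fold change of 1 were found for 17 members, 7 higher and 10 lower, or 39.5%, against 32.4% of all genes. With signs left aside, the median log2 difference was 0.6108 for the members and 0.6775 for all genes. On the log2 scale the members higher in J.gamma1, beside SYK, were EGR1 at 3.09 (standard error 0.31, edgeR adjusted p = 2.17e-06), NR4A1 at 2.75, NFATC1 at 2.07, RASGRP1 at 1.55, LCK at 1.36 and SLA at 1.18. The lower members were led on that scale by PAG1 at -3.36 (standard error 0.079, edgeR adjusted p = 2.28e-11), SLA2 at -2.70 and TRAT1 at -1.95. They went on with TXK at -1.77, SIT1 at -1.38, SH2D1A at -1.32, CD28 at -1.19, ICOS at -1.14, LAT at -1.07 and NFATC3 at -1.04. With its lncRNA summed, LAT was at -0.67 (edgeR adjusted p = 3.3e-06), and without the first J.gamma1 sh-NC library ICOS was at -0.86 (edgeR adjusted p = 0.0631). PLCG1 was higher in J.gamma1, at a log2 difference of 0.33 (standard error 0.044, edgeR adjusted p = 2.73e-05). UBASH3A, DGKZ and LAX1 did not pass. Line and any other difference between the 2 sets of libraries cannot be told apart.

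Levels of different genes were compared per kilobase of merged exon length, which pools the exons of all annotated isoforms, so the values depend on that length. On this scale SH2D1A at 104 CPM per kb, SIT1 at 91.9 and LCK at 89.0 stood highest in 6T-CEM controls. In J.gamma1 controls LCK was highest at 228 CPM per kb, ahead of GRB2 at 56.2 and SLA at 50.2. CTLA4 apart, the lowest detected members were NR4A1 at 0.127 and EGR1 at 0.187 CPM per kb in 6T-CEM, and TXK at 0.287 and ICOS at 0.319 in J.gamma1. Of the paired relatives ZAP70 and SYK, 6T-CEM controls had 28.1 and 0 CPM per kb and J.gamma1 controls 32.8 and 21.5. PLCG1 exceeded PLCG2 in both, with 22.6 against 1.92 CPM per kb in 6T-CEM and 28.4 against 2.32 in J.gamma1. Without the division by length, of 9648 bases for PLCG1 and 18328 for PLCG2, the gap was smaller. It was 218 against 35.2 CPM in 6T-CEM controls and 274 against 42.6 in J.gamma1 controls. PLCG2 also shares 4141 exon bases with the lncRNA gene ENSG00000289733 on the same strand, for which no counts were given.

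**Figure D5:**
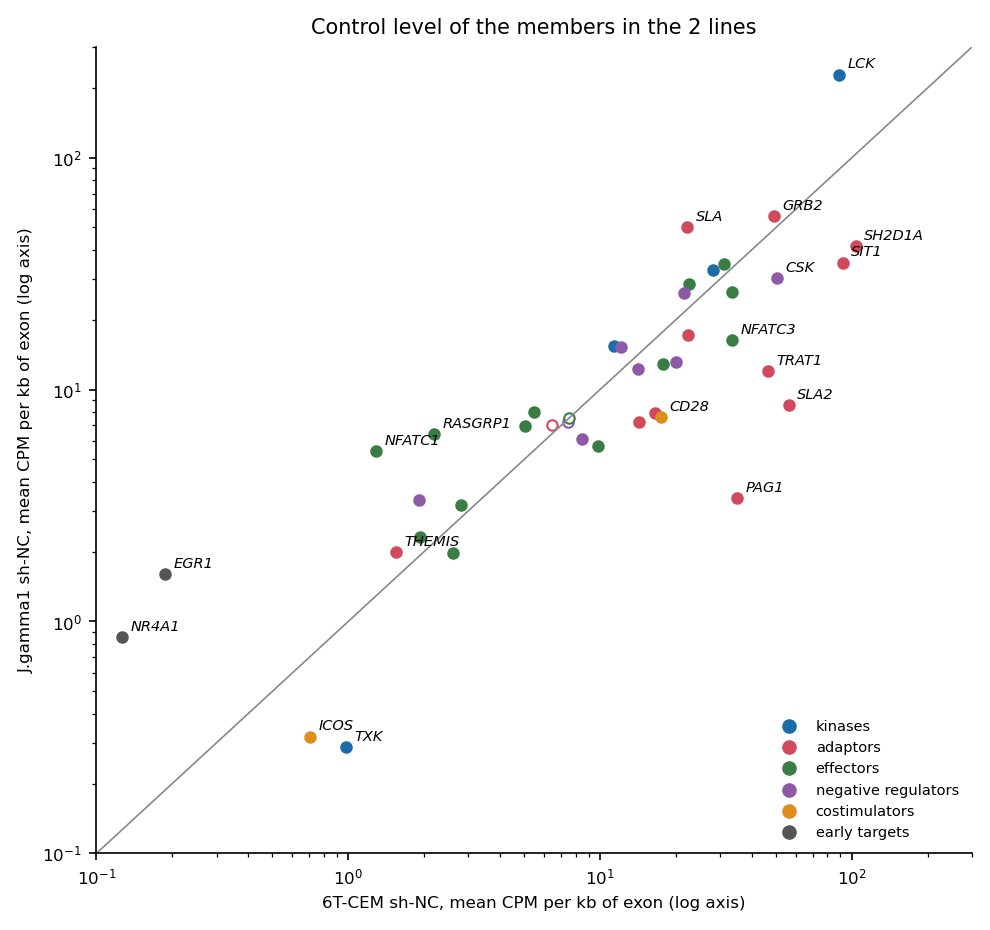
Mean level of each member in the sh-NC libraries (n = 2 per line) in CPM per kilobase of exon, 6T-CEM on the x axis and J.gamma1 on the y axis, both log axes. Filled points differed at an edgeR adjusted p of 0.05 and the grey line marks equal level. SYK and CTLA4 are left out because they were at 0 in a line, and PAG1, SLA2 and TRAT1 lie furthest below the line.

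The rest of the pathway was followed with 60 other TCR pathway genes, all tested in both lines. In 6T-CEM 19 rose and 13 fell, or 31.7% and 21.7%, against 15.1% and 16.2% of all genes. In J.gamma1 24 rose and 18 fell, or 40% and 30%, against 25% and 26.5%, so that the falling share there was near that of all genes. On the log2 fold change scale, the largest rises in 6T-CEM were those of the coreceptor CD4 at 1.32 (edgeR adjusted p = 1.84e-08), the adaptor DOK2 at 0.74 (edgeR adjusted p = 0.000778) and the NF-κB regulator IKBKG at 0.64 (edgeR adjusted p = 0.000837). The Tec kinase TEC at -1.51 (edgeR adjusted p = 6.69e-07), the adaptor FYB1 at -0.87 (edgeR adjusted p = 2.23e-07) and the GTPase-activating protein RASA3 at -0.75 (edgeR adjusted p = 1.47e-06) fell the most. In J.gamma1 the coreceptor genes led, with CD8A at 2.25 (edgeR adjusted p = 1.49e-05), CD4 at 2.19 (edgeR adjusted p = 2.48e-07) and CD8B at 1.19 (edgeR adjusted p = 0.00853), and RASA3 at -1.35 (edgeR adjusted p = 1.73e-08), VAV3 at -1.01 (edgeR adjusted p = 1.1e-07) and AKT1 at -0.88 (edgeR adjusted p = 1.37e-07) fell the most. CD4 had 36.2 and 35.1 CPM in the 6T-CEM controls and 84.0 and 93.3 after knockdown. It had 5.48 and 4.79 CPM in the J.gamma1 controls and 23.2 and 23.3 after knockdown, so that knockdown cells of J.gamma1 remained below the controls of 6T-CEM. CD8A and CD8B rose in J.gamma1 from very low levels. CD8A had 1.39 and 1.24 CPM in the controls and 6.11 and 6.31 after knockdown. In 6T-CEM it had 29.4 and 31.5 CPM in the controls and 43.6 and 39.0 after knockdown and also rose (log2 fold change 0.44, edgeR adjusted p = 0.00167). CD8B had 1.20 and 1.27 CPM in the J.gamma1 controls and 3.36 and 2.24 after knockdown, and did not pass in 6T-CEM (edgeR adjusted p = 0.76). Of the genes named above for 6T-CEM alone, DOK2 at 1.00 and IKBKG at 0.72 rose in J.gamma1 too. FYB1 at -0.80 fell there too, while TEC did not pass (-0.084, edgeR adjusted p = 0.827). VAV3 at -0.44 and AKT1 at -0.24, named for J.gamma1, also fell in 6T-CEM.

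Of 28 immediate early and activation genes, 18 were tested in 6T-CEM, where 7 rose and 4 fell (38.9% and 22.2%, against 15.1% and 16.2% of all genes). In J.gamma1 22 were tested, where 7 rose and 5 fell (31.8% and 22.7%, against 25% and 26.5%), shares near those of all genes. The antiproliferative gene BTG2 rose the most in both, at log2 fold changes of 1.78 (edgeR adjusted p = 5.59e-09) and 2.25 (edgeR adjusted p = 3.95e-09). Among those averaging 50 counts or more, JUN at 1.13 (edgeR adjusted p = 2.22e-05) and TNF at 0.78 (edgeR adjusted p = 0.00668) followed in 6T-CEM, and NR4A2, with 17 to 80 counts in those libraries, rose at 1.69 (edgeR adjusted p = 0.00313). There CD69, ATF3 and JUNB fell, at -0.70, -0.69 and -0.63 (edgeR adjusted p of 0.0051, 0.0032 and 0.000848). In J.gamma1 FOSL2 at 1.01 (edgeR adjusted p = 0.000943) and DUSP2 at 1.00 (edgeR adjusted p = 0.00141) followed, and DUSP6 at -1.45 (edgeR adjusted p = 9.4e-05), FOSB at -1.45 (edgeR adjusted p = 0.00296) and DUSP1 at -1.26 (edgeR adjusted p = 6.37e-06) fell. Early response genes thus were called in both directions in each line.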

How the data were processed

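The RNA-seq libraries of both lines, with sh-NC or sh-LDB1, were analysed, with 2 libraries in each of 4 groups. Paired-end reads were mapped by the authors with HISAT2 2.2.0 on hg38 and summarised per gene with StringTie, and the authors deposited whole-number counts per gene without normalization. The annotation release and the use of strand in counting are not given in the sources used here, so genes that share exons are uncertain. Symbols were matched for 56105 of 64252 genes, and 8147 had none. Gene positions, exon lengths and overlaps came from GENCODE on GRCh38, promoters from RefSeq.

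R 4.3.3, edgeR 4.0.16 (limma 3.58.1) and DESeq2 1.42.0 were used. The main test was edgeR's robust quasi-likelihood test with TMM factors and filterByExpr, adjusted over all genes by Benjamini-Hochberg, in each line by itself. Interactions and control levels were tested in a fit to all 8 libraries. SDs and standard errors rest on 2 libraries per group. With so few libraries, a lack of overlap between groups is description only. It was also seen for members that were not called, such as LAX1 in both lines. Replicates had a Pearson correlation of log2 CPM (pseudocount 0.5) of 0.9939 to 0.9942 and differed by more than sampling noise. A gene at 0 was given a floor of 3 counts per library, which covers counting error only.

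The members, roles, lists and tests were chosen with earlier results of these data known. Full values are given for the 10 largest called changes per line, members with a called interaction and PLCG1, and for up to 3 rising and 3 falling genes of other lists at a mean of at least 50 counts. Alternatives were other factors, filters, thresholds and fits, DESeq2, counts summed by symbol, the replicate number as a block, leaving out each library, and, chosen after the data were seen, LAT summed with its lncRNA. The steps were tested on simulated data. Protein sequences of paralogues were not analysed here. The values of 1 B-cell marker are not reported here by themselves.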

Additional observations from a re-analysis of the deposited data

Results flagged for a closer look

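The log2 fold change after knockdown differed between the lines for LDB1 and for 23 members, by edgeR's interaction test at an adjusted p of 0.05 over 18552 genes. LDB1 itself fell less in J.gamma1, with a difference, J.gamma1 minus 6T-CEM, of 0.70 (standard error 0.095, edgeR adjusted p = 0.000237). For each member below, the difference is followed in brackets by the 6T-CEM and the J.gamma1 log2 fold change. The difference was positive for THEMIS 2.47 (0.40 and 2.87), SLA2 1.95 (0.11 and 2.06), CD28 1.64 (-0.17 and 1.47), PTPN22 1.10 (0.25 and 1.35), TRAT1 1.04 (-0.31 and 0.73) and LAT 0.96 (0.78 and 1.74). It was positive also for GRAP2 0.96 (-0.42 and 0.55), PAG1 0.91 (-0.81 and 0.10), PTPRC 0.61 (0.38 and 0.99), CSK 0.60 (0.057 and 0.66), SIT1 0.44 (0.99 and 1.43) and SH2D1A 0.28 (-0.84 and -0.55). It was negative for EGR1 -1.34 (0.051 and -1.28), NR4A1 -1.23 (1.47 and 0.24), SLA -0.93 (-0.10 and -1.03), CBL -0.85 (0.39 and -0.46), NFATC1 -0.79 (0.28 and -0.51) and LCK -0.52 (0.14 and -0.38). It was negative also for MALT1 -0.43 (-0.038 and -0.46), NFATC2 -0.39 (0.028 and -0.36), SOS1 -0.30 (0.29 and -0.0047), PRKCQ -0.28 (-0.14 and -0.42) and UBASH3B -0.22 (-0.46 and -0.68). GRAP2, TRAT1 and CBL passed the test in both lines with opposite signs. The depth of the LDB1 knockdown differed between the lines, as did the control levels, and their part in these differences was not tested.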

How the results depend on the processing

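No member changed direction past the threshold under any alternative. With a log2 fold change beyond 1 required as well, the calls were 2 in 6T-CEM and 8 in J.gamma1, 7 for the difference and 17 for the control level, in place of 21, 34, 23 and 40, as a stricter rule must give. At an adjusted p under 0.01 the difference held for 15 members. Leaving out 1 library at a time, the calls ranged from 15 to 19 in 6T-CEM, from 28 to 34 in J.gamma1, from 16 to 21 for the difference and from 33 to 40 for the control level; such fits assume that the lone library of a group varies like the other groups. Under every alternative at the same threshold 13 of 21, 28 of 34, 15 of 23 and 32 of 40 calls held. Calls were also gained in at least 1 alternative, in 6T-CEM for LCK, PTPN22, LCP2, NFATC1, THEMIS and CD28, in J.gamma1 for CBLB and for the difference for ZAP70, BCL10 and DGKZ. In the control level ZAP70, PLCG2, VAV1, MALT1, PTPN6, PTPRC, THEMIS and ICOS were lost in at least 1, with an adjusted p of up to 0.214 for MALT1. Same-numbered libraries of a line did not deviate together (correlation -0.0218 in 6T-CEM and -0.0113 in J.gamma1), so the numbers were not taken to pair the samples. With the replicate number as a block 22 members were called in 6T-CEM, 33 in J.gamma1, 23 for the difference and 37 for the control level. With 2 libraries per group and few counts, changes of EGR1, NR4A1, ICOS and TXK have wide errors.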
